A study of Drosophila melanogaster with 6 samples.

Results

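The genes described here belong to or are read out by the JAK-STAT pathway of the fly, with 1 further gene, Gagr. The relation of Gagr to the pathway was not tested here. The list named 10 genes: the Turandot genes TotA, TotC and TotM, the virus-induced gene vir-1, Gagr, the cytokine gene upd3, the receptor gene dome, the kinase gene hop, the transcription factor gene Stat92E and the feedback inhibitor gene Socs36E. A gene was taken up through every probe set whose only gene symbol in the platform annotation was its own. This gave 5 genes, TotC, vir-1, Gagr, dome and Stat92E, with 1 probe set each, out of 11982 genes with a symbol on the array. TotA, TotM, upd3, hop and Socs36E were not analysed here. The 5 genes all passed the filter on low values.

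In this pathway secreted cytokines of the Unpaired family bind the receptor Domeless, the kinase Hopscotch is activated, and Stat92E, the only STAT of the fly, moves to the nucleus and turns on its targets. The targets include inhibitors of the SOCS family, which dampen the pathway, and the Turandot genes, which encode small secreted proteins made mainly by the fat body under stress, heat or infection. vir-1 was described as a gene induced by Drosophila C virus in a way that needs the pathway. Gagr derives from the gag gene of a retrotransposon of the gypsy group and is a domesticated host gene.

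Heart/nephrocyte complexes of adult female Drosophila melanogaster were compared on 6 single-channel Affymetrix arrays. The RNA of 3 arrays came from flies kept for 21 days on glucosamine medium (0.1 M), and that of the other 3 from flies kept equally long on sucrose medium (1.0 M). The labels give no strain and name 30 adult females, without saying whether each array held its own set of flies. How much of the spread between arrays reflects differences between flies is therefore not known. Flies on unsupplemented medium were not analysed here, and the molar amount of added sugar was not the same on the 2 media. Rose and fell, as used below, mean higher and lower on glucosamine than on sucrose. A gene raised on one medium and a gene lowered on the other cannot be told apart.

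The upper quartile of the deposited intensities was 222 to 237 over the arrays. In a limma fit of 10021 genes and unnamed probe sets, 994 were higher and 866 lower after glucosamine at an adjusted p of 0.05. Genes that mark nephrocytes and the heart were measured on all 6 arrays, among them the nephrin gene sns, the cubilin gene Cubn, Amnionless and Hand. Of 11 tested markers of this list 7 fell, these named genes among them, and 4 did not pass. Those were kirre, tup, pnr and H15, with log2 differences of −0.63, −0.18, 0.02 and −0.0003. The summed intensity of the 11 was 13882 to 16478 on the glucosamine arrays and 34934 to 48328 on the sucrose arrays. In such bulk samples fewer cells of a type and less RNA per cell cannot be told apart. 2 arrays had higher signal of markers of other tissues than the rest. The summed intensity of 9 gut markers was 7172 on glucosamine replicate 3 and 146 to 922 on the other 5 arrays, and that of 7 ovary markers was 7584 on sucrose replicate 1 and 355 to 1058 on the other 5. Glucosamine replicate 2 had higher signal of several immune genes than the other glucosamine arrays, as seen after their values were inspected. The antifungal peptide gene Drs had 1827, 19732 and 1625 on the glucosamine arrays and 608 to 2117 on the sucrose arrays, and Mtk, another antimicrobial peptide gene, had 77.0, 10867 and 220.1 on the glucosamine arrays and 29.5 to 1658 on the sucrose arrays. Their part in the results below was not tested. Without this array the log2 differences of Gagr, vir-1 and TotC, given below with all arrays, were 4.28, 2.16 and 1.56.

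The list was selected in part on the diet differences measured on these arrays, so the differences of the 5 genes are given as a description and without a test. 3 had a higher mean after glucosamine by over 2-fold, namely Gagr, vir-1 and TotC, and the receptor gene and the STAT gene differed by less. At the threshold used for all genes 2 of the 5, Gagr and vir-1, were among the calls, where 18.6% of everything tested was called in either direction, 9.92% as higher and 8.64% as lower. The groups did not overlap for Gagr and vir-1, which lay higher after glucosamine, and for Stat92E, which lay lower, while of everything tested 18.9% lay higher and 20.0% lower without overlap, 39.0% in all. Nothing is read from these shares, since the contrast was known when the genes were chosen.

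The cytokine receptor gene dome had intensities of 137, 176 and 110.2 on the glucosamine arrays and 111, 86.0 and 92.5 on the sucrose arrays. The groups overlapped by the narrow gap between glucosamine replicate 3 and sucrose replicate 1. Its means were 141 ± 33.3 on glucosamine and 96.6 ± 13.2 on sucrose (SD, n = 3 each), and the difference on the scale log2(intensity + 16), glucosamine minus sucrose, was 0.47 ± 0.20 (SE). Stat92E had 6495, 5197 and 6314 on the glucosamine arrays and 7177, 8197 and 7047 on the sucrose arrays. Every glucosamine array lay below every sucrose array, with means of 6002 ± 703 on glucosamine and 7474 ± 629.8 on sucrose (SD, n = 3 each) and a log2 difference of −0.32 ± 0.15 (SE). Its probe set has the suffix that Affymetrix gives where all probes match more than 1 transcript, as has that of vir-1, so isoforms were not separated. The glucosamine array with the highest dome signal, replicate 2, was also the one with the lowest Stat92E signal.

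TotC, of the Turandot family of secreted stress proteins, had intensities of 13962, 12993 and 7340.0 on the glucosamine arrays and 1438, 2450.0 and 11360.0 on the sucrose arrays. 2 of the sucrose arrays lay well below all glucosamine arrays, and sucrose replicate 3 lay among them. The means were 11432 ± 3576 on glucosamine and 5083 ± 5459.8 on sucrose (SD, n = 3 each), a ratio of 2.25, and the log2 difference was 1.68 ± 0.73 (SE). Within the sucrose group the highest value was 7.90 times the lowest, and the SD of log2 values was 1.54, a spread that 0.509% of everything tested reached in that group. Within the glucosamine group the highest value was 1.90 times the lowest. The log2 difference was 2.54 ± 0.37 (SE) without sucrose replicate 3 and 1.06 ± 0.67 (SE) without sucrose replicate 1, so its size depended on which sucrose arrays were used.

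**Figure D1:**
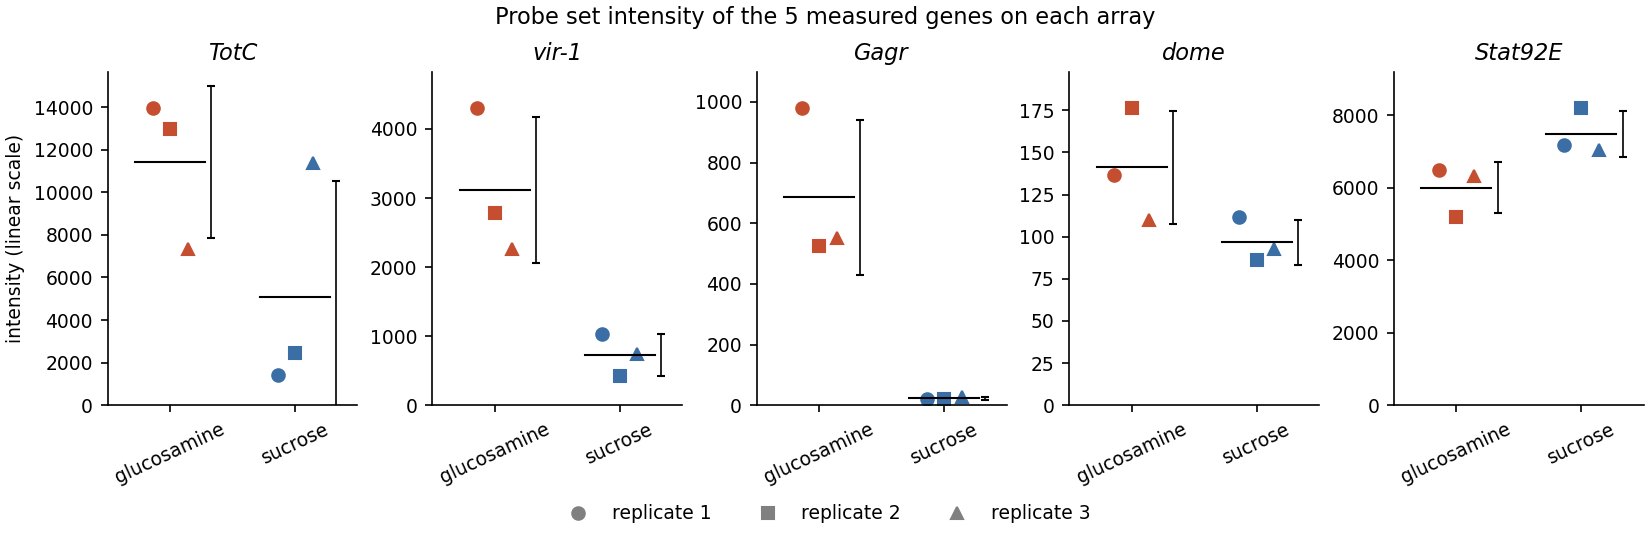
Intensity of the probe set of TotC, vir-1, Gagr, dome and Stat92E on each array (linear scale from 0, a separate scale for each gene), with the glucosamine arrays left and the sucrose arrays right. Symbols mark replicates 1 to 3, the line is the mean and the bar is the SD over 3 arrays, which for TotC on sucrose runs past 0; TotC on sucrose replicate 3 (11360.0) lies among the glucosamine arrays, while Gagr and vir-1 do not overlap.

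vir-1, the virus-induced readout of the pathway, had intensities of 4305, 2785 and 2259 on the glucosamine arrays and 1028, 423 and 741 on the sucrose arrays. The lowest glucosamine value was above the highest sucrose value. The means were 3116 ± 1062 on glucosamine and 731 ± 303 on sucrose (SD, n = 3 each), a ratio of 4.27, with a log2 difference of 2.10 ± 0.37 (SE). Without 1 array the difference ran from 1.76 to 2.39. Its SD on the log2 scale was 0.47 within the glucosamine group and 0.63 within the sucrose group, against medians over everything tested of 0.22 in the glucosamine group and 0.23 in the sucrose group.

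Gagr, the domesticated gag gene, had intensities of 980.3, 527 and 551 on the glucosamine arrays and 21.3, 19.6 and 27.8 on the sucrose arrays. On sucrose it lay near the low end of the scale on every array, and the lowest glucosamine value was far above the highest sucrose value. The means were 686 ± 255 on glucosamine and 22.9 ± 4.37 on sucrose (SD, n = 3 each), and the log2 difference was 4.12 ± 0.26 (SE). The log2 difference with a pseudocount of 1 in place of 16 was 4.80, where the smaller pseudocount weighs less on the sucrose values. The sucrose values may be limited by a background whose level is not known here, so the size of the difference is not exact. Without 1 array the difference ran from 3.84 to 4.28. Within the glucosamine group the SD on the log2 scale was 0.49.

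The arrays were not ordered in the same way for the 3 genes. Glucosamine replicate 1 had the highest value of TotC, vir-1 and Gagr alike. The lowest glucosamine value was on replicate 3 for TotC and vir-1 and on replicate 2 for Gagr. On sucrose, replicate 3 had the highest TotC and Gagr and replicate 1 the highest vir-1. The array that put TotC among the glucosamine values therefore did not do so for vir-1, where it had 741, or for Gagr, where it had 27.8.

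**Figure D2:**
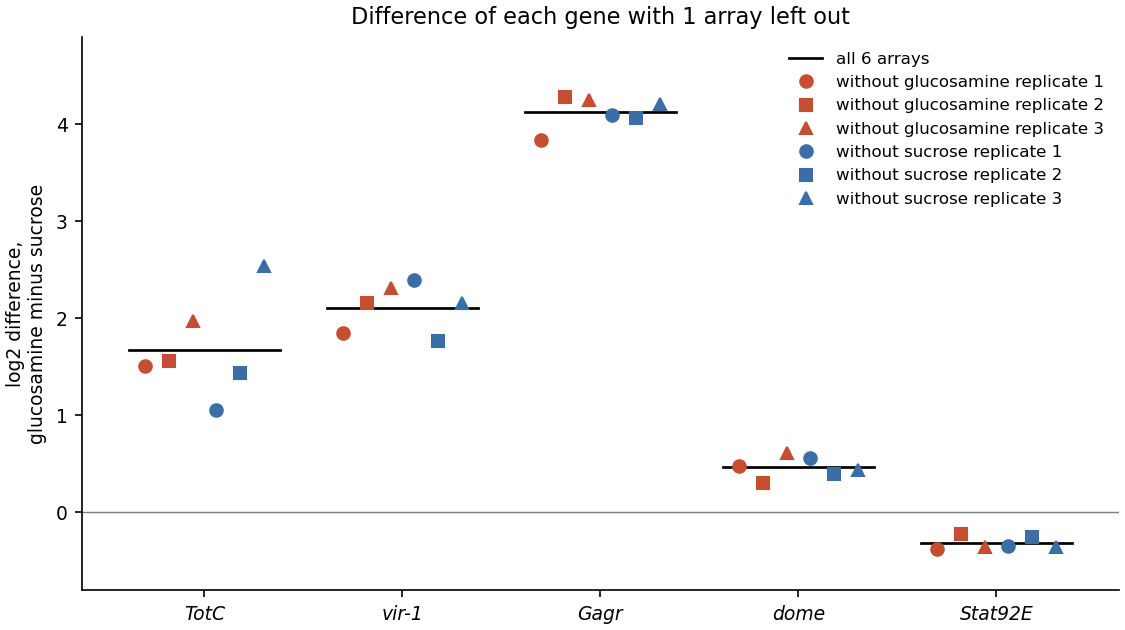
Log2 difference (glucosamine minus sucrose, on log2(intensity + 16)) of each gene with all 6 arrays (line) and with 1 array left out (symbols, by group and replicate). Gagr and vir-1 stay between 3.84 and 4.28 and between 1.76 and 2.39, while TotC moves from 1.06 without sucrose replicate 1 to 2.54 without sucrose replicate 3.

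Genes beside the 5 were taken from 6 lists of 52 genes in all, 4 of JAK-STAT and Turandot genes and 2 of other pathways (p38, JNK and NF-kB, and antiviral and gag-derived genes). Of these 46 had a probe set of their own and 40 passed the filter on low values. The lists were drawn up with earlier results of these arrays known, so their counts and shares are descriptions and support nothing about the lists. At an adjusted p of 0.05, 15 of the 40 were higher after glucosamine and 1 was lower, where 9.92% of everything tested was higher and 8.64% lower. The JAK-STAT and Turandot lists held 9 of the 15, among 20 tested genes, and the lists of other pathways held 6 among 20. The median log2 difference of the 40 was 0.48, and that of everything tested was −0.03. Leaving out glucosamine replicate 1 gave 6 in place of 15, leaving out glucosamine replicate 3 gave 9, and the replicate number as a block gave 8. With both glucosamine replicate 3 and sucrose replicate 1 left out there were 2. In those fits 4.97%, 6.24%, 5.92% and 2.11% of everything tested was called as higher.

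The Unpaired ligand genes upd1 and upd2 did not pass the filter, with intensities of 6.62 to 8.86 and 7.05 to 7.98 on the glucosamine arrays and of 5.45 to 22.0 and 6.66 to 7.15 on the sucrose arrays. Both were dim on every array. The gene et, which encodes a shorter receptor that inhibits the pathway and lies next to dome in the genome, had 51.4, 46.0 and 74.9 on glucosamine against 53.5, 51.5 and 54.9 on sucrose. Its groups overlapped, with a log2 difference of 0.06 ± 0.18 (SE; limma adjusted p = 0.839) that turned to −0.10 without glucosamine replicate 3.

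Of 13 tested regulators of the pathway 7 rose after glucosamine, none fell and 6 did not pass, and of everything tested 9.92% was higher. Socs44A, an inhibitor gene of the SOCS family, had 699, 659 and 881 on the glucosamine arrays and 366, 271 and 377 on the sucrose arrays. All glucosamine values were above all sucrose values, with a log2 difference of 1.11 ± 0.19 (SE; limma adjusted p = 0.0118), and Socs44A passed in all 6 fits without 1 array. Socs16D, another gene of the SOCS family, had 381, 258 and 335 on glucosamine against 132, 166 and 167 on sucrose (log2 difference 0.99 ± 0.19, SE; limma adjusted p = 0.0160). Stam, which acts in endosomal sorting of receptors, had 1057, 769 and 1067 on glucosamine against 470.0, 488 and 489 on sucrose (0.96 ± 0.17, SE; limma adjusted p = 0.0127). Socs16D passed in 4 of 6 fits without 1 array and not with the replicate number as a block (limma adjusted p = 0.0570), and Stam passed in 5 of 6, not without glucosamine replicate 1 (limma adjusted p = 0.0534).

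The other 4 that rose, named after their values were seen, were Ptp61F, a tyrosine phosphatase gene that counteracts Hopscotch and Stat92E (0.84), ken, a repressor gene of some STAT targets (1.09), Hrs, of endosomal sorting (0.63), and the cyclin gene CycD (1.01). A second probe set of Ptp61F had 748, 747 and 666 on the glucosamine arrays and 325, 278 and 226 on the sucrose arrays, and it lay higher too, by 1.34 on the log2 scale (limma adjusted p = 0.00518 in a fit of all probe sets). The count of 7 depended on which arrays were used. It was 1 when glucosamine replicate 1 was left out, 2 when glucosamine replicate 3 and 4 when sucrose replicate 3 was left out, 2 with the replicate number as a block and 1 with both glucosamine replicate 3 and sucrose replicate 1 left out. The median of the list was 0.63. Regulators that did not pass included the PIAS gene Su(var)2-10, at −0.27 ± 0.29 (SE). A second probe set of Su(var)2-10 went the other way, by 0.23 (limma adjusted p = 0.415 in a fit of all probe sets). A second probe set of Socs16D was dim on every array, at 5.155 to 5.676.

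**Figure D3:**
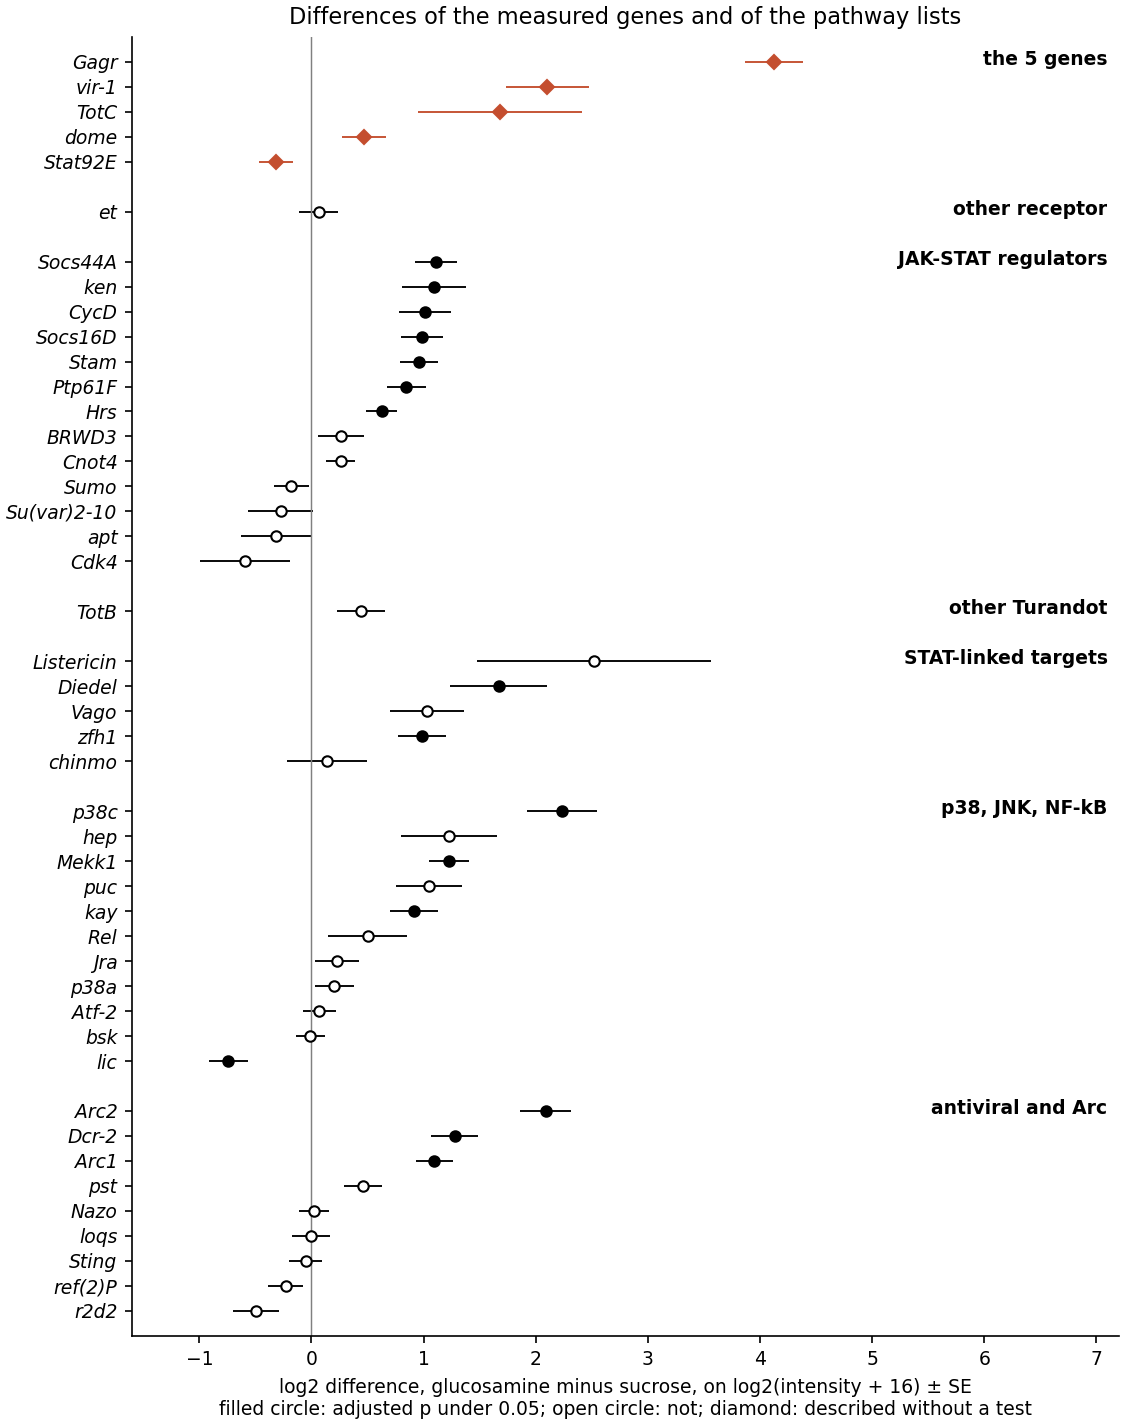
Log2 difference, glucosamine minus sucrose, on log2(intensity + 16) with the SE of the fit, for TotC, vir-1, Gagr, dome and Stat92E (diamonds, described without a test) and for the 40 tested genes of the 6 lists (circles, filled where the adjusted p over all 10021 was under 0.05). In the regulator list 7 of 13 circles are filled and lie between 0.63 and 1.11, while dome (0.47) and Stat92E (−0.32) lie closer to 0.

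Of the other Turandot genes, TotB passed the filter and TotE, TotF and TotZ did not. TotB had 15.4, 20.5 and 13.5 on the glucosamine arrays and 4.48, 4.78 and 15.9 on the sucrose arrays. Its groups overlapped in the same way as those of TotC, next to which it lies, through a higher value on sucrose replicate 3, though all its values were near the low end of the scale. The log2 difference was 0.44 ± 0.21 (SE; limma adjusted p = 0.203). TotE, TotF and TotZ stayed between 4.57 and 5.98 on every array.

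Among 5 tested immune and developmental genes linked to the pathway, 2 rose and none fell, where 9.92% of everything tested was higher. Diedel, which encodes a secreted immune regulator, had 622, 677 and 307 on the glucosamine arrays and 108, 107 and 274 on the sucrose arrays, with a log2 difference of 1.67 ± 0.43 (SE; limma adjusted p = 0.0404). The groups did not overlap, but sucrose replicate 3 was the highest sucrose array and glucosamine replicate 3 the lowest glucosamine array, as for TotC. Diedel passed in 2 of 6 fits without 1 array. The transcription factor gene zfh1 had 1944, 1742 and 1659 on glucosamine against 658, 1093 and 975 on sucrose (0.99 ± 0.21, SE; limma adjusted p = 0.0236) and passed in 3 of 6. The count of 2 was 0 without glucosamine replicate 1 or 2, 1 without glucosamine replicate 3 or sucrose replicate 1 or 2, and 0 with the replicate number as a block, without a filter, or with both glucosamine replicate 3 and sucrose replicate 1 left out. Vago, an antiviral gene, had a log2 difference of 1.03 ± 0.33 (SE; limma adjusted p = 0.0751), and Listericin, an antibacterial gene, reached 1870.0 on glucosamine replicate 2 against 85.1 and 165 on the other glucosamine arrays and 22.3 to 78.2 on sucrose.

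The stress kinase Mekk1, upstream of p38, is known to act on Turandot genes. Of 11 tested genes of the p38, JNK and NF-kB pathways 3 rose and 1 fell, where 9.92% of everything tested was higher and 8.64% lower. With both glucosamine replicate 3 and sucrose replicate 1 left out none passed. The p38 kinase gene p38c had 2307, 1741 and 3376 on the glucosamine arrays and 428, 704 and 399 on the sucrose arrays (2.23 ± 0.31, SE; limma adjusted p = 0.00651). Mekk1 had 1209, 884 and 1071 on glucosamine against 505, 384 and 433 on sucrose (1.23 ± 0.18, SE; limma adjusted p = 0.00719). Both passed in all 6 fits without 1 array. The Fos gene kay rose by 0.92 in one probe set and 0.87 in another, and lic, the kinase gene directly upstream of p38, fell by 0.74 (limma adjusted p = 0.0288), a call that held in 1 of 6 fits without 1 array and not with the replicate number as a block or without a filter. The JNK gene bsk had a log2 difference of −0.01 ± 0.13 (SE), while the JNK phosphatase gene puc had 1.05 ± 0.30 (SE; limma adjusted p = 0.0523).

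Of 9 tested genes of antiviral defence, with the gag-derived genes Arc1 and Arc2 in the same list, 3 rose and none fell, where 9.92% of everything tested was higher, and without the 2 Arc genes 1 of 7 rose. With both glucosamine replicate 3 and sucrose replicate 1 left out 1 of the 9 rose. The 3 were Arc2 (2.09 ± 0.22, SE; limma adjusted p = 0.00338), Arc1 (1.10 ± 0.16, SE; limma adjusted p = 0.00769) and the siRNA pathway gene Dcr-2 (1.28 ± 0.21, SE; limma adjusted p = 0.0108). Arc2 had 4890.0, 5070.0 and 5374 on the glucosamine arrays and 1349, 847 and 1468 on the sucrose arrays. A second probe set of Arc1 had 1879, 2801 and 1509 on glucosamine against 183, 381 and 455 on sucrose. Its log2 difference was larger, at 2.59 (limma adjusted p = 0.00803 in a fit of all probe sets), so the size for Arc1 depended on the probe set. As for Gagr, every glucosamine value of both Arc genes was above every sucrose value, which held for 18.9% of everything tested. Sting had a log2 difference of −0.05 ± 0.15 (SE) and the other siRNA gene r2d2 −0.50 ± 0.21 (SE), and neither passed.

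Genes with the most similar profile were found by the root-mean-square distance between the 6 log2 values, each profile centred on its mean, among 8774 other tested genes with a symbol. For Gagr they were CG18213 (0.32), CG7763 (0.34) and the cytochrome P450 gene Cyp12c1 (0.36). CG18213 had 848, 444 and 725 on the glucosamine arrays and 39.2, 25.5 and 22.9 on the sucrose arrays. For vir-1 they were the kinase gene Pak3 (0.20), Swim (0.26) and the nicotinamidase gene Naam (0.28), and Pak3 had 2511, 1840.0 and 1697 on glucosamine against 539, 327 and 511 on sucrose. For TotC the distances were larger, with the glutathione S-transferase gene GstD6 (0.50), Diedel (0.51) and CG14645 (0.56). GstD6 had 203, 213 and 200.2 on the glucosamine arrays and 11.6, 14.4 and 95.8 on the sucrose arrays, with the highest sucrose value on replicate 3 as for TotC. These distances describe 6 arrays and carry no test.

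**Figure D4:**
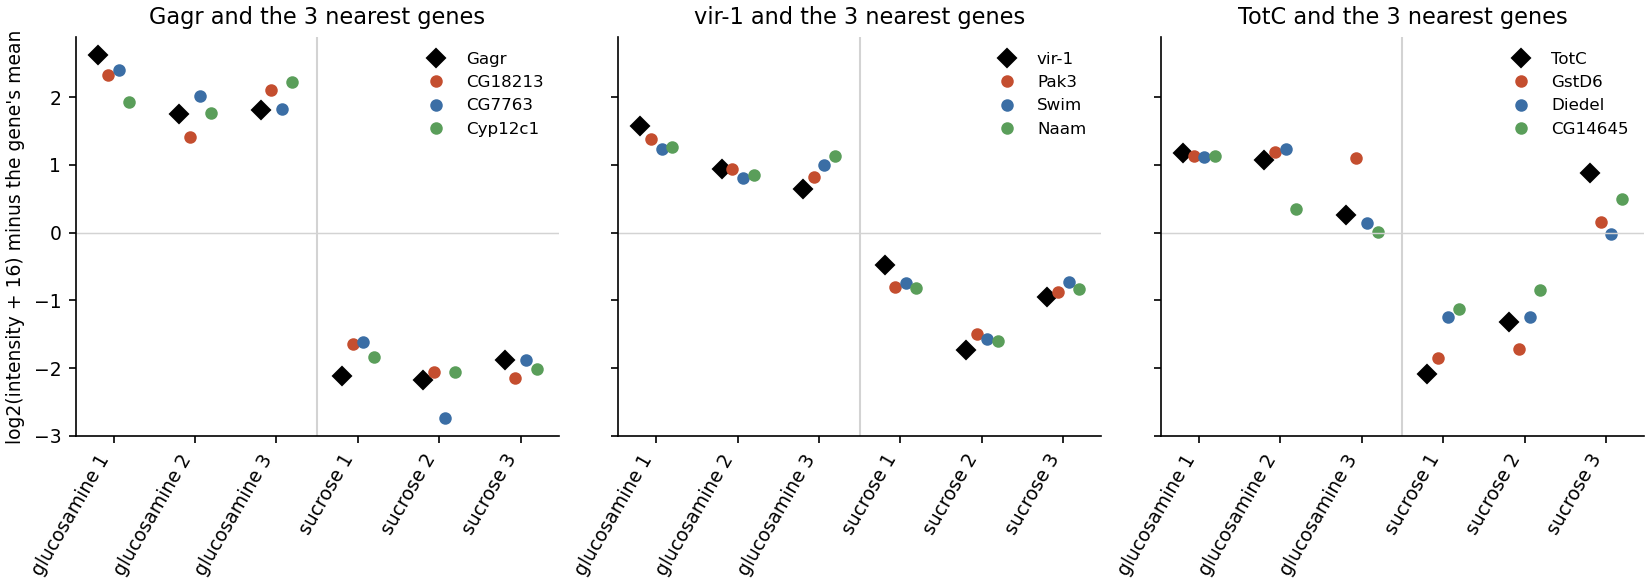
Log2(intensity + 16) on each array minus the gene's mean over 6 arrays, for Gagr, vir-1 and TotC (black diamonds) and the 3 genes at the smallest distance from each (circles). The points of Gagr and vir-1 fall into 2 levels by diet, while TotC and its nearest genes have their highest sucrose value on replicate 3.

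The genes next to the 5 in the RefSeq order were looked at as well. Of 20 positions, 4 around each gene, 8 had a tested gene. Among these 1 passed the threshold, where 18.6% of everything tested was called in either direction. The gene that passed was MtnD, a metallothionein gene next to Stat92E, with means of 3661 on glucosamine and 11175 on sucrose (log2 difference −1.76 ± 0.44, SE; limma adjusted p = 0.0369). The neighbours were added after the values of the 5 genes were seen.

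Markers of other cell types that could carry these transcripts were set beside the 5 genes. None of 11 hemocyte markers passed, where 18.6% of everything tested was called in either direction. Of these 11 markers 11 were above the filter. Their summed intensity was 24664 to 29267 on the glucosamine arrays and 28833 to 30969 on the sucrose arrays. None of 9 tested fat body markers passed, and their summed intensity, over 10 genes, was 96100 to 107170 on glucosamine against 95334 to 116588 on sucrose. Both sums were led by bright genes and say little about the dimmer ones. The hemocyte sum was led by Nplp2, with means of 13281 on glucosamine and 16803 on sucrose. Yp1, Yp2 and Yp3 led the fat body sum, with means of 25309, 31841 and 20587 on glucosamine and 25284, 30503 and 23972 on sucrose. Log2 differences of single genes of the fat body list ran from −1.04 (Lsp2) to 0.45 (Apoltp). Adgf-A, placed in the same list, was at −0.86, and which tissue gave its signal was not tested. Within the sucrose group, replicate 3 had the highest hemocyte sum and the lowest fat body sum. None of 6 tested gut markers and none of 6 tested ovary markers passed, though their median log2 differences were 1.52 and −1.07. Lists this short can hold no call at the share of 18.6%, so nothing is read from these counts. The gut sum was high on glucosamine replicate 3, where TotC, vir-1 and dome had their lowest glucosamine values, and the ovary sum was high on sucrose replicate 1, which had the lowest TotC and the highest vir-1 and dome of the sucrose arrays. The part of these tissues in the differences of the 5 genes was not tested. With both of those arrays left out, the log2 differences were 4.22 for Gagr, 2.59 for vir-1 and 1.35 for TotC.

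**Figure D5:**
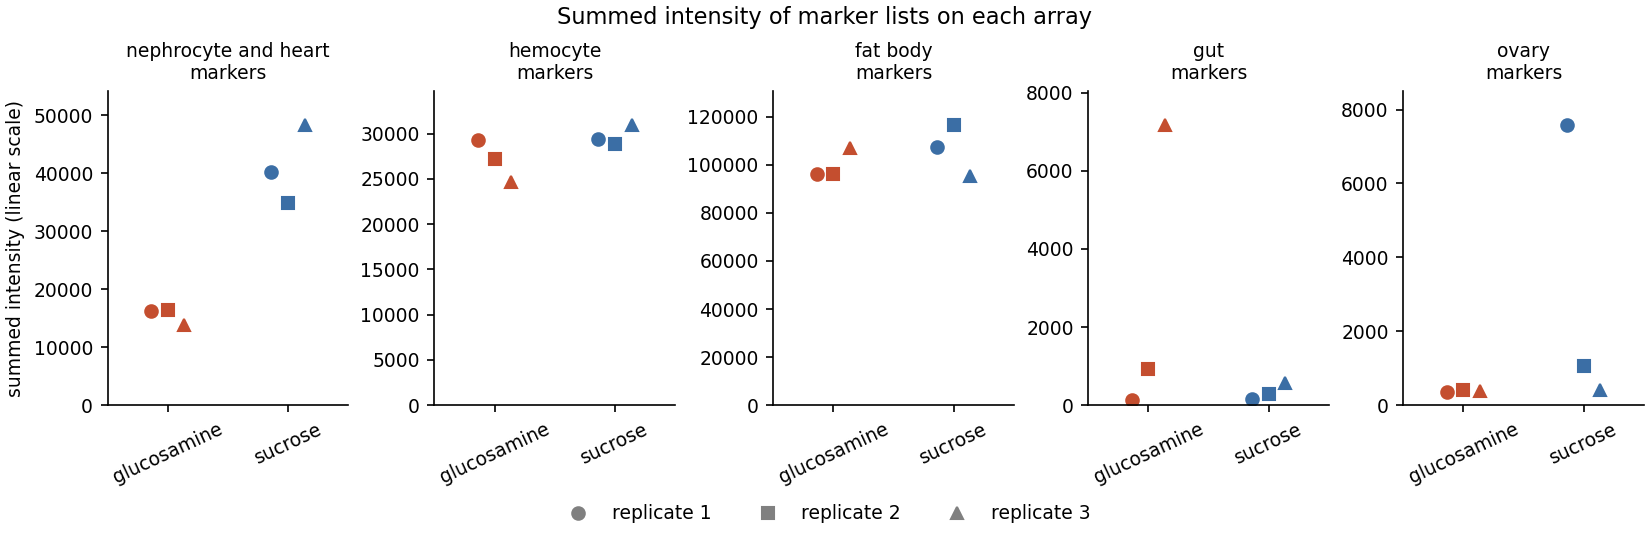
Summed intensity of 5 marker lists on each array (linear scale from 0, a separate scale for each list), with the glucosamine arrays left and the sucrose arrays right and symbols for replicates 1 to 3. The nephrocyte and heart sum is lower on all glucosamine arrays. The hemocyte and fat body sums, each led by bright genes, overlap. The gut sum on glucosamine replicate 3 (7172) and the ovary sum on sucrose replicate 1 (7584) stand apart.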

How the data were processed

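RNA was isolated with Trizol and a column kit and labelled as biotinylated cRNA, per the labels' protocols. The deposited table holds an intensity for each probe set on each array, on a linear scale. Summarisation, background correction and normalization by the authors are not given in the sources used here, and the values were used as deposited. From the 18952 probe sets, 183 controls and 402 that the annotation ties to several genes were removed. A gene with several probe sets was represented by the brightest, and after removal of the dimmest 40% by mean, 10021 remained. Differences of log2(intensity + 16) were tested in limma 3.58.1 (R 4.3.3; lmFit, eBayes; two-sided; Benjamini-Hochberg over all 10021). The added 16 understates changes of dim genes. With 3 arrays a group, exact permutation gives no p under 0.1, and the number of arrays limits the precision. The test was checked on simulated data.

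The genes and lists were chosen with earlier results of these data known. Named were all genes described, every ligand, receptor and Turandot gene, the 3 genes of each other list with the smallest unadjusted p, and the 3 nearest profiles of Gagr, vir-1 and the brightest Turandot gene. RefSeq names of Release 6 plus ISO1 MT served for symbols and neighbours. Alternatives were quantile, median and cyclic loess normalization, no filter or one of 60%, a pseudocount of 1, mean probe sets, a variance trend, the replicate block, arrays left out and, added after seeing the data, all probe sets separately. Figures were drawn with matplotlib 3.10.9.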

Additional observations from a re-analysis of the deposited data

How the results depend on the processing

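Of the 5 genes, none changed direction in any of the 17 alternatives. TotC ran from 1.06 to 2.54, vir-1 from 1.76 to 2.59, Gagr from 3.84 to 4.80, dome from 0.31 to 0.70 and Stat92E from −0.39 to −0.20. The count of 2 among the calls, a description, was 1 without a filter, and 2 or 3 without 1 array, 3 without sucrose replicate 3. Counts of all genes, 994 higher and 866 lower, were 498 to 831 and 288 to 636 without 1 array, 593 and 406 with the replicate number as a block, and 211 and 120 with both glucosamine replicate 3 and sucrose replicate 1 left out. Counts for the 6 lists, 15 higher and 1 lower, were 6 to 13 and 0 to 1 without 1 array, 8 and 0 with the block, and 2 and 0 with both arrays left out, while the 1 lower was 0 without a filter. The difference of et, 0.06, was −0.10 to 0.18 without 1 array, lowest without glucosamine replicate 3, and −0.10 with both arrays left out. Fits without an array have fewer samples. Deviations from the group means of arrays with the same number correlated at 0.02, −0.12 and −0.05 over 10021 genes. Those of arrays with different numbers correlated at −0.14 to 0.21. Deviations within a group of 3 depend on one another, so these values cannot decide whether the numbers pair the arrays. Dim genes, such as the ligand genes, TotB and Gagr on sucrose, may be limited by the background, whose level is not known here.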

Other observations

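The 3 profiles nearest to TotC among all 10020 others tested, with probe sets that carry no symbol included, were all unnamed. Probe set 1623635_at, at a distance of 0.30 on the log2 scale, had 10114, 9704 and 3876 on the glucosamine arrays and 1294, 2507 and 9779 on the sucrose arrays. Probe set 1625164_at, at 0.46, had 2456, 1402 and 773 on glucosamine against 367, 281 and 1689 on sucrose. In both, sucrose replicate 3 lay among or above the glucosamine arrays, and neither passed the threshold (limma adjusted p = 0.319 and 0.266). Both were singled out after their values were seen.

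On sucrose replicate 3, 17 of 10021 genes and probe sets were at least 4 times as high as on both other sucrose arrays, TotC among them. The same count was 59 on sucrose replicate 1, 11 on sucrose replicate 2, and 18, 55 and 58 on glucosamine replicates 1, 2 and 3. None of the other 4 genes was among them on any array.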
